A study of Mus musculus with 6 samples.

Results

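The 10 genes described here make up a small set around the transcription factor NRF2: Nfe2l2, which encodes NRF2, its inhibitor gene Keap1, the repressor gene Bach1, and the antioxidant target genes Hmox1, Slc7a11, Gclc, Gclm, Txnrd1, Srxn1 and Nqo1. They were listed by name for their known roles, although with earlier results of these data known, and were found in the deposited count table by gene identifier, 10 of 55487 genes. All 10 passed the filter on low counts, among 15774 genes tested. The data are RNA-seq counts of Ly6G-positive neutrophils sorted from digested mouse lung. The 3 mutant libraries came from Mrp8-Cre;TGFbR2-fl/fl mice, which carry the transgene Tg(S100A8-cre,-EGFP)1Ilw and the loxP-flanked allele Tgfbr2tm1Karl, and the 3 wt libraries came from TGFbR2-fl/fl littermates without Cre. Both groups thus share the floxed allele, and the mutants alone carry Cre and EGFP, so the loss of Tgfbr2 and the presence of the transgene cannot be told apart. The S100A8 (Mrp8) promoter drives Cre in neutrophils and their precursors. The sources used here do not give ages, treatments or any pooling of animals. The labels do not tie a library to a mouse, so the p-values reflect library-to-library spread, which may be technical.

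KEAP1 holds NRF2 in the cytoplasm and hands it to a CUL3 ubiquitin ligase for degradation. Oxidants and electrophiles modify KEAP1, after which NRF2 accumulates, pairs with small MAF proteins and activates genes through antioxidant response elements. BACH1 occupies the same elements with small MAF proteins as a repressor, above all at Hmox1, and leaves them when it binds heme. Neutrophils make large amounts of superoxide and hypochlorous acid, and the glutathione and thioredoxin systems are among their own defences.

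Each library held between 30403494 and 35906780 counts. Values are given as CPM, the count scaled to the library's TMM-adjusted total, on which 3 counts are worth 0.0829 to 0.102 CPM, and counting error alone sets that limit. The members had 109 to 34330 counts per library. Neutrophil markers summed to 16593 to 21978 CPM per library, with the receptor gene Csf3r at 7689 to 9233 CPM and Ly6g, the gene of the sorting marker, at 14.4 to 35.2 CPM. Tgfbr2 was at 176, 205 and 181 CPM in mutant replicates 1 to 3 and at 186, 185 and 201 CPM in wt replicates 1 to 3, counts that pool all its exons and so do not check the deletion. Over all tested genes edgeR's quasi-likelihood test called 1 gene higher in mutants and 0 lower at an adjusted p under 0.05. At an unadjusted p under 0.05 there were 554 on the higher side and 508 on the lower.

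Within the pathway, the mutant and wt libraries separated for 5 of the 10 members. Bach1 and Hmox1 were lower in all 3 mutant libraries than in any wt library, and Slc7a11, Txnrd1 and Srxn1 were higher. Nfe2l2 itself was at nearly the same level in both groups, and Keap1, Gclc, Gclm and Nqo1 overlapped between them. None of the 10 passed the adjusted threshold: 0 of 10 were called by edgeR at an adjusted p under 0.05, where 0.00634% of all tested genes were called, and 0 by DESeq2, which called 0.514% of genes higher and 0.469% lower, or by limma-voom. The 5 members without overlap are 50% of the set, against 13.0% of all tested genes and 15.1% of the 6910 genes averaging 10 CPM or more, the range in which 8 of the 10 members lie. Since the set was chosen with earlier results known, this share is a description and no independent evidence. By direction these were 3 members higher against 6.82% of all genes and 2 lower against 6.21%. At an unadjusted p under 0.05 in edgeR, 3 members were higher, against 3.51% of all genes, and 2 were lower, against 3.22%. Together these 5 compare with 6.73% of all genes, or 9.64% of those averaging 10 CPM or more. The 2 lower members kept an unadjusted p under 0.05 whichever library was left out, whereas leaving out mutant replicate 2 took the higher count to 0, and leaving out wt replicate 3 took it to 1. The median log2 fold change of the members was 0.09 and that of all tested genes 0.01.

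**Figure D1:**
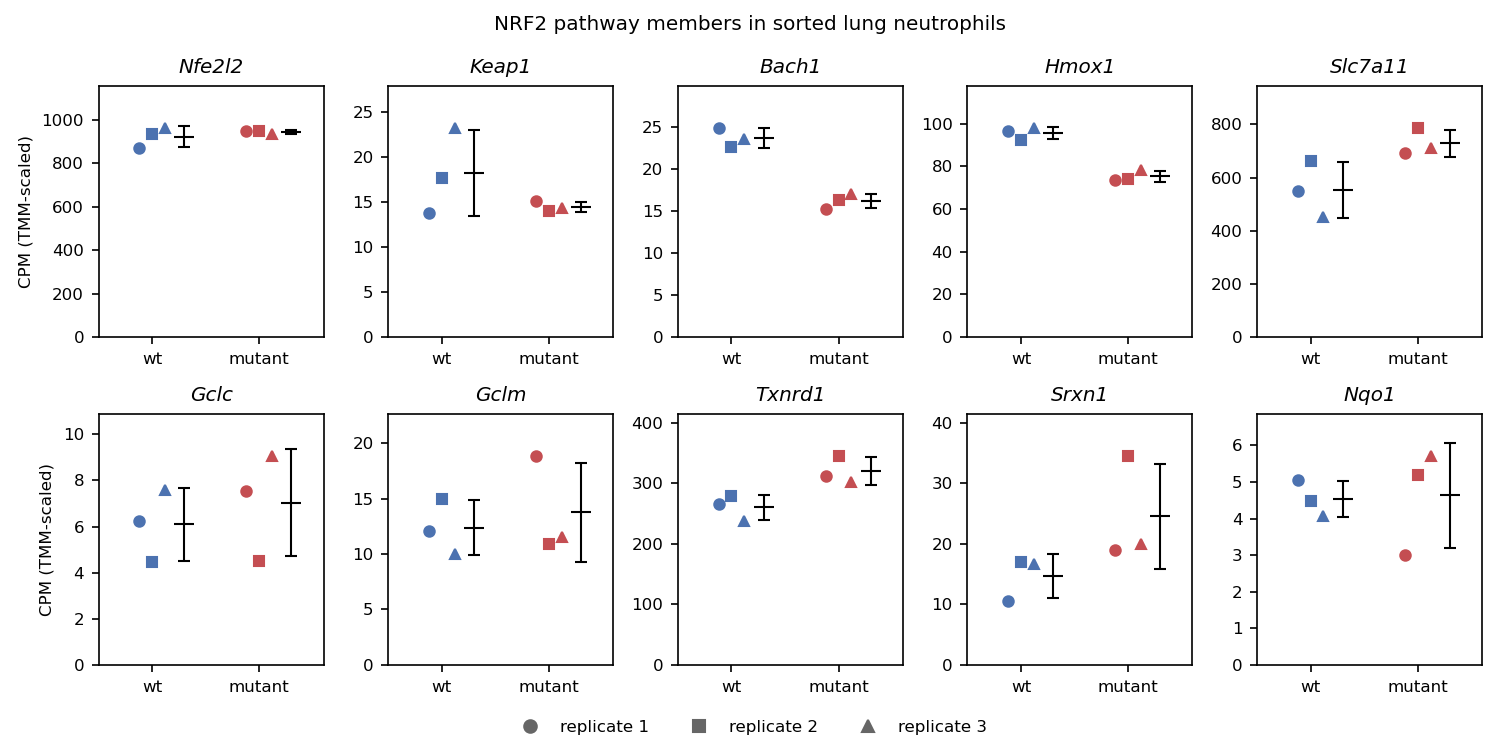
TMM-scaled CPM of each member in each library, with wt in blue, mutant in red, and the mean and SD of the 3 libraries of a group in black. The mutant points of Bach1 and Hmox1 lie below all wt points, those of Slc7a11, Txnrd1 and Srxn1 lie above them, and the groups overlap for the other 5 genes.

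Levels can be compared between genes only per length, here as CPM per kilobase of the summed exons. On that scale Nfe2l2 led with a mean of 246 ± 8.67 (SD over 6 libraries), and its lowest library was above the highest of every other member. Hmox1 at 48.9, Slc7a11 at 46.1 and Txnrd1 at 40.9 CPM per kilobase followed, with ranges that overlapped from each to the next. The lowest library of Txnrd1, at 33.5, was above the highest of Srxn1, at 12.3. Srxn1 at 6.97, Keap1 at 3.49, Bach1 at 3.22, Nqo1 at 2.95, Gclm at 2.08 and Gclc at 1.74 CPM per kilobase formed the lower part of the order, where each overlapped with its neighbour. The summed exon length counts every annotated exon, 13922 bases for Slc7a11 against 1553 for Nqo1, so it sets these levels where a cell uses a shorter transcript.

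**Figure D2:**
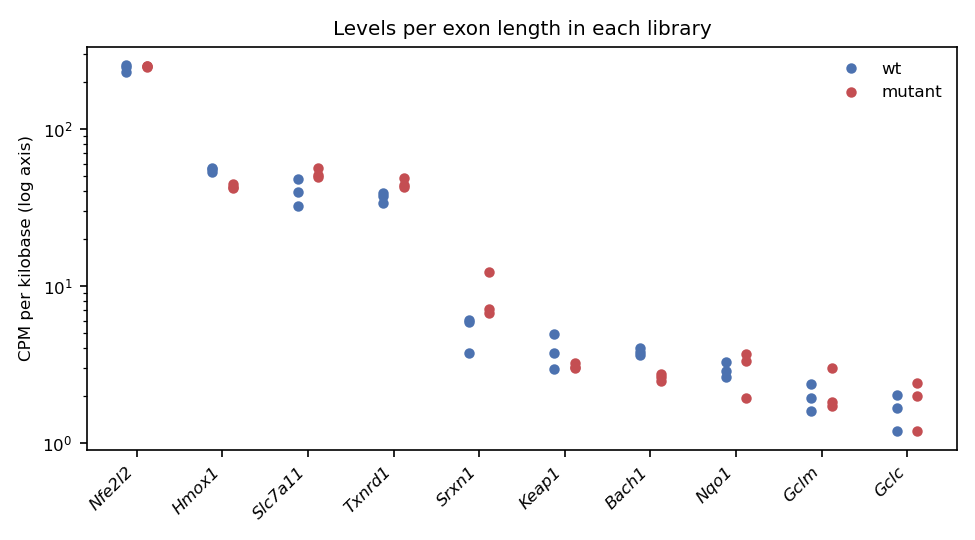
CPM per kilobase of exon on a log axis, one point per library, wt in blue and mutant in red, with members ordered by their mean. Nfe2l2 stands alone near 246, Hmox1, Slc7a11 and Txnrd1 lie between 32.4 and 56.6, and the other 6 members lie between 1.18 and 12.3.

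Among the regulators, Nfe2l2 (chromosome 2, 75675513 to 75704641 in GRCm38, minus strand) was at 949, 949 and 935 CPM in mutant replicates 1 to 3 and at 870, 938 and 964 CPM in wt replicates 1 to 3. The mutant values lay within the wt range. Its log2 fold change was 0.03 ± 0.08 (SE; 95% interval -0.15 to 0.21; edgeR adjusted p = 0.995), and the sign turned without wt replicate 1 (-0.0089). Transcript level does not show NRF2 activity, which is set mainly by the protein's degradation. Keap1 (chromosome 9, 21229730 to 21239361, minus strand) was at 15.1, 14.1 and 14.3 CPM in mutants and at 13.8, 17.6 and 23.3 CPM in wt. The wt libraries spread more widely than the mutant ones, and wt replicate 1 was below all mutants. The log2 fold change of Keap1 was -0.33 ± 0.22 (SE, adjusted p = 0.882 by edgeR) and shrank to -0.12 without wt replicate 3. Over 10.9% of the Keap1 exon length another annotated gene, Gm16754, lies on the opposite strand, and its counts were 0.96% of those of Keap1. These counts do not show how reads over the shared bases were assigned.

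Bach1 (chromosome 16, 87698945 to 87733346, plus strand) was at 15.2, 16.3 and 17.0 CPM in mutant replicates 1 to 3 and at 24.9, 22.6 and 23.5 CPM in wt replicates 1 to 3, from 482 to 757 counts per library. Every mutant library lay below every wt library. The means were 16.2 ± 0.883 and 23.7 ± 1.15 CPM (SD, n = 3 each), so that wt was 1.46-fold the mutant mean. The log2 fold change was -0.55 ± 0.16 (SE) (95% interval -0.91 to -0.18), for which edgeR gave an unadjusted p of 0.00754 and 0.487 after adjustment. With each library left out the log2 fold change ran from -0.58 to -0.50, and over all alternatives the adjusted p ran from 0.132 to 0.802.

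Hmox1 (chromosome 8, 75093621 to 75100589, plus strand), which encodes heme oxygenase 1, the enzyme that cuts heme into biliverdin, iron and carbon monoxide, was at 73.7, 74.2 and 78.3 CPM in mutant replicates 1 to 3 and at 96.6, 92.4 and 98.1 CPM in wt replicates 1 to 3. The groups did not overlap and each was tight. The means were 75.4 ± 2.52 and 95.7 ± 2.95 CPM (SD, n = 3 each), so that wt was 1.27-fold the mutant mean. Its log2 fold change of -0.34 ± 0.11 (SE) (95% interval -0.58 to -0.10) had an unadjusted p of 0.00938 in edgeR and 0.498 after adjustment, and stayed between -0.37 and -0.32 with each library left out. The adjusted p over all alternatives ran from 0.124 to 0.812. The repressor gene Bach1 and its best-known target Hmox1 were thus both on the lower side in mutants.

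Of the 11 other listed genes of heme and iron handling, 9 were tested. By edgeR 0 were higher and 1 was lower at an unadjusted p under 0.05, against 3.51% and 3.22% of all genes. The median log2 fold change was 0.09. The lower gene was Slc40a1, which encodes ferroportin, the iron exporter and a further gene known to be repressed by BACH1. It was at 748, 745 and 715 CPM in mutant replicates 1 to 3 and at 920, 931 and 1019.8 CPM in wt replicates 1 to 3, and the groups did not overlap. Its log2 fold change was -0.38 ± 0.08 (SE), with an adjusted p of 0.294 by edgeR and of 0.00625 by DESeq2, and over all alternatives the adjusted p ran from 0.00625 to 0.683. DESeq2 called 0.983% of the genes for which it gave an adjusted p, and Slc40a1 was the 1 listed pathway gene among them. Hmox2, the constitutive heme oxygenase, had mutant and wt means of 55.8 ± 3.64 and 48.2 ± 7.49 CPM, and Fech, which inserts iron into protoporphyrin, at 39.7 ± 1.21 and 33.7 ± 3.82 CPM (SD, n = 3 each). The means of these 2 genes were on the other side from Slc40a1, with edgeR adjusted p of 0.889 and 0.851.

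Slc7a11 (chromosome 3, 49892526 to 50443614, minus strand) encodes xCT, the light chain of the antiporter that imports cystine for glutathione synthesis. It was at 692, 787 and 711 CPM in mutant replicates 1 to 3 and at 550, 663 and 452 CPM in wt replicates 1 to 3. All mutant libraries were above all wt libraries, by a narrow gap between mutant replicate 1 and wt replicate 2. The means were 730 ± 50.6 and 555 ± 106 CPM (SD, n = 3 each), 1.32-fold apart. The log2 fold change was 0.40 ± 0.13 (SE) (95% interval 0.10 to 0.69), for which edgeR gave an unadjusted p of 0.0144 and 0.554 after adjustment. With each library left out the value ran from 0.27 to 0.54, and the unadjusted edgeR p passed 0.05 when mutant replicate 2 (0.051) or wt replicate 3 (0.054) was left out. Slc3a2, the gene of the heavy chain that carries xCT to the membrane, was at 538, 457 and 586 CPM in mutants and at 417, 422 and 433 CPM in wt. Both chains of the antiporter were therefore on the higher side in all mutant libraries, with an edgeR adjusted p of 0.558 for Slc3a2.

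The enzymes that use the imported cystine did not separate. Gclc (chromosome 9, 77754535 to 77794485, plus strand), the catalytic subunit of glutamate-cysteine ligase, was at 7.52, 4.51 and 9.07 CPM in mutants and at 6.24, 4.46 and 7.59 CPM in wt. Gclm (chromosome 3, 122245557 to 122270732, plus strand), its modifier subunit, was at 18.9, 10.9 and 11.5 CPM in mutants and at 12.1, 15.0 and 10.001 CPM in wt. Annotated genes Gm17494 and Gm6061 lie over 4.71% and 3.88% of the Gclm exon length, with counts of 1.43% and 0% of those of Gclm. For both subunits the groups overlapped over most of their range. Their log2 fold changes were 0.21 with a 95% interval of -0.55 to 0.96 and 0.16 with an interval of -0.44 to 0.76 (edgeR adjusted p of 0.980 and 0.982), so changes of the size seen for Slc7a11 lie within both intervals. The sign turned without mutant replicate 3 for Gclc (-0.020) and without mutant replicate 1 for Gclm (-0.14).

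Of the 21 listed glutathione genes 20 were tested. Those at an unadjusted p under 0.05 in edgeR were 3 higher and 0 lower, against 3.51% and 3.22% of all genes. The median log2 fold change was 0.12, and 0 were called by edgeR or DESeq2 after adjustment. Besides Slc3a2 these were Gss and Gpx3. Gss, the glutathione synthetase gene that completes the tripeptide, was at 32.0, 84.8 and 43.1 CPM in mutant replicates 1 to 3 and at 30.02, 28.1 and 25.4 CPM in wt replicates 1 to 3. Its mutant values were widely spread, with replicate 2 far above the others and replicate 1 just above wt. The log2 fold change of 0.94 (edgeR adjusted p = 0.523) dropped to 0.43 without mutant replicate 2. Gpx3, a secreted glutathione peroxidase, was at 278, 282 and 428 CPM in mutants and at 230, 214 and 268 CPM in wt (edgeR adjusted p = 0.595). Mutant replicate 3 stood far above the other mutant libraries for Gpx3. Groups did not overlap for 6 of the 20, with 4 higher and 2 lower in mutants, against 6.82% and 6.21% of all genes.

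Txnrd1 (chromosome 10, 82833951 to 82897712, plus strand), the cytosolic thioredoxin reductase, a selenoprotein that recycles thioredoxin with NADPH, was at 312, 345 and 301 CPM in mutant replicates 1 to 3 and at 265, 278 and 238 CPM in wt replicates 1 to 3. The mutant libraries were all above the wt libraries. The means were 320 ± 22.9 and 260 ± 20.7 CPM (SD, n = 3 each), 1.23-fold apart. The log2 fold change was 0.30 ± 0.10 (SE; 95% interval 0.06 to 0.53), for which edgeR gave an unadjusted p of 0.0174 and 0.593 after adjustment. Left out one at a time, mutant replicate 2 and wt replicate 3 took the unadjusted edgeR p to 0.058 and 0.070, with log2 fold changes of 0.23 in both cases.

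Srxn1 (chromosome 2, 152105516 to 152111376, plus strand) encodes sulfiredoxin, which repairs peroxiredoxins that have been overoxidized. It was at 19.1, 34.6 and 20.0 CPM in mutant replicates 1 to 3 and at 10.5, 17.1 and 16.6 CPM in wt replicates 1 to 3. Mutant replicate 2 and wt replicate 1 stood apart from the other libraries of their groups, and the remaining 4 libraries lay between 16.6 and 20.0 CPM. The means were 24.6 ± 8.71 and 14.7 ± 3.65 CPM (SD, n = 3 each), 1.66-fold apart. The log2 fold change was 0.73 ± 0.28 (SE) (95% interval 0.12 to 1.35), for which edgeR gave an unadjusted p of 0.0246 and 0.630 after adjustment. It dropped to 0.40 without mutant replicate 2 (unadjusted p of 0.149 by edgeR) and to 0.54 without wt replicate 1 (unadjusted p of 0.094 by edgeR).

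In the rest of the thioredoxin and peroxiredoxin list, 13 genes were tested, and at an unadjusted p under 0.05 in edgeR 2 were higher and 1 lower. The median log2 fold change was 0.13, and 0 were called after adjustment. The higher genes were the peroxiredoxins Prdx1, whose protein is recycled by thioredoxin and repaired by sulfiredoxin, and Prdx6, whose protein is recycled with glutathione instead. Prdx1 was at 51.8, 57.5 and 52.9 CPM in mutants and at 38.3, 46.3 and 39.7 CPM in wt, and Prdx6 at 384, 367 and 428 CPM in mutants and at 297, 365 and 270 CPM in wt. Neither overlapped between groups, though mutant replicate 2 and wt replicate 2 of Prdx6 were nearly level. Counts of Prdx6 are uncertain because near-identical copies such as Prdx6b can take its reads. The lower gene was Txnip, whose protein binds and inhibits thioredoxin, at 470, 374 and 458 CPM in mutants and at 642, 470 and 547 CPM in wt, where the highest mutant and the lowest wt library were level. Their edgeR adjusted p were 0.584, 0.610 and 0.636.

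The stretches before the transcription starts of the members on the higher side, and of Gclm as one that overlapped, are shown for the elements they hold. RefSeq windows in GRCm38.p6 were matched by symbol for 8 of the 10 members, and the 250 bases before each start were searched on both strands. The searched letters were the antioxidant response element core TGACNNNGC, its variant TGAGNNNGC and the ATF4 core TGATGNAA. With TCA in the open places, both TGACNNNGC and TGAGNNNGC hold the AP-1 motif. Capitals mark every match, also where it reads on the other strand. Of the 3 Txnrd1 windows the one with a match is shown, and it lies inside the gene at a downstream start.
Srxn1, chr2:152105274-152105523, plus strand: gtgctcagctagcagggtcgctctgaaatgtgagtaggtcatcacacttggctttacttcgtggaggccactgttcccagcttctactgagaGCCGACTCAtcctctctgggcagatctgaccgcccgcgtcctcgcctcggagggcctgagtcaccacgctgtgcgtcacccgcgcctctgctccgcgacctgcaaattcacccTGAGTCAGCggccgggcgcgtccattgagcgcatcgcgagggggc
Txnrd1, chr10:82858956-82859205, plus strand: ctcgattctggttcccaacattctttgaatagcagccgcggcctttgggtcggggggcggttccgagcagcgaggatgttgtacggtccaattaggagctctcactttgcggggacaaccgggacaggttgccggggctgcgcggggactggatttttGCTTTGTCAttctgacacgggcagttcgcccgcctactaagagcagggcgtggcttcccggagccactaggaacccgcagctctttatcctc
Slc7a11, chr3:50443614-50443863, minus strand: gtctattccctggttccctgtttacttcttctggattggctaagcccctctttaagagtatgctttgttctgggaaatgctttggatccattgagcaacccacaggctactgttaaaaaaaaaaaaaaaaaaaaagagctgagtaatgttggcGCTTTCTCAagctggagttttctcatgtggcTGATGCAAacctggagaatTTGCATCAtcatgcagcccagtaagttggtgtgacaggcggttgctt
Gclm, chr3:122245307-122245556, plus strand: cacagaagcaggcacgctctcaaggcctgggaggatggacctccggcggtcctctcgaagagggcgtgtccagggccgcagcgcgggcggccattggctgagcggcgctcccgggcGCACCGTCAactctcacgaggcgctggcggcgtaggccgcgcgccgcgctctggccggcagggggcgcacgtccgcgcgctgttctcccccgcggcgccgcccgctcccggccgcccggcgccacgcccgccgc
The TGACNNNGC core was in 10.2% of all 32851 windows and in those of Gclm, Nfe2l2 and Txnrd1. In Gclm and Txnrd1 it reads on the other strand. The bases after the start of the Nfe2l2 window were not found in an annotated transcript of that gene, unlike those of the other member windows. TGAGNNNGC was in 14.4% of all windows and in those of Srxn1, once on each strand, and Slc7a11. The Srxn1 window thus holds the element in its G variant, as TGAGTCAGC starting 45 bases before the start and as TGAGTCGGC on the other strand. The ATF4 core was in 3.45% of all windows and, among the members, in that of Slc7a11, where it occurs on both strands 66 and 47 bases before the start. The windows of Bach1, Keap1 and Nqo1 held none of these letters. Among the other listed pathway genes 20 of 110 windows held TGACNNNGC and 19 held TGAGNNNGC. A match describes letters only and is not a bound site.

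Nqo1 (chromosome 8, 107388225 to 107403206, minus strand), a quinone reductase often used as a readout of NRF2, was at 3.01, 5.18 and 5.72 CPM in mutants and at 5.06, 4.49 and 4.06 CPM in wt, from 109 to 186 counts per library. The wt libraries lay inside the mutant range. Its log2 fold change was 0.03 ± 0.34 (SE) (95% interval -0.73 to 0.79; edgeR adjusted p = 0.998), and its sign turned when mutant replicate 2, mutant replicate 3 or wt replicate 3 was left out (-0.060, -0.15 and -0.042) and with limma-voom (-0.035). Of the 17 further detoxification and export genes listed, 15 were tested, with a median log2 fold change of 0.10. In edgeR 0 of these were higher or lower at an unadjusted p under 0.05, a count near the 6.73% of all genes. Those with the smallest p were the efflux pump gene Abcc1, with mutant and wt means of 13.4 ± 4.49 and 9.41 ± 1.71 CPM, Aldh1a1, an aldehyde dehydrogenase, at 39.6 ± 17.3 and 28.3 ± 9.26 CPM, and the oxidative stress gene Osgin1, at 257 ± 65.8 and 215 ± 16.1 CPM (SD, n = 3 each). The 6 genes of NADPH supply, which feeds both glutathione and thioredoxin reduction, had a median of -0.05. They also had 0 at an unadjusted p under 0.05 in edgeR, near the 6.73% of all genes for so short a list. Among them Taldo1, transaldolase, was at 1843 ± 164 and 1942 ± 136 CPM, Pgd, 6-phosphogluconate dehydrogenase, at 747 ± 186 and 723 ± 53.7 CPM, and G6pdx, glucose-6-phosphate dehydrogenase, at 218 ± 23.4 and 227 ± 11.6 CPM.

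**Figure D3:**
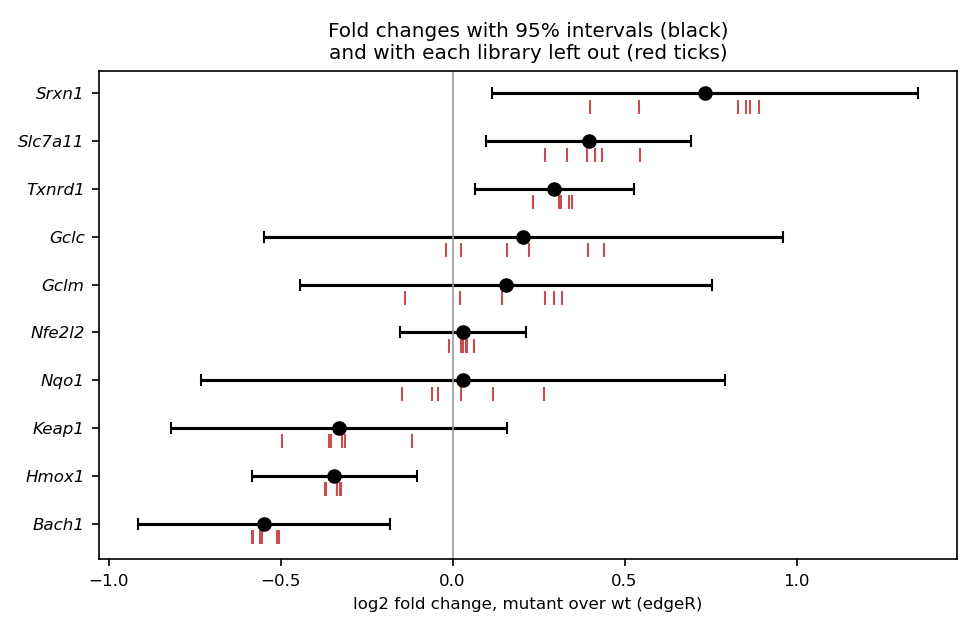
Log2 fold change of each member, mutant over wt, from edgeR with its 95% interval in black, and the same value with each of the 6 libraries left out as red ticks. The intervals of Bach1, Hmox1, Slc7a11, Txnrd1 and Srxn1 do not include 0 before adjustment, and the ticks of Srxn1 reach from 0.40 to 0.89 while those of Hmox1 stay between -0.37 and -0.32.

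Of the binding partners and degradation machinery of NRF2, 14 genes were tested. With an unadjusted p under 0.05 in edgeR, 2 were higher and 0 lower, against 3.51% and 3.22% of all genes. The median log2 fold change was 0.03. Maff, a small MAF protein that pairs with NRF2 and BACH1, was at 13.5, 16.4 and 15.8 CPM in mutants and at 11.1, 10.6 and 8.50 CPM in wt (edgeR adjusted p = 0.593). Sqstm1, whose protein p62 draws KEAP1 into autophagy and whose gene is itself an NRF2 target, was at 772, 815 and 885 CPM in mutants and at 723, 678 and 726 CPM in wt (edgeR adjusted p = 0.684). Neither overlapped between groups. Nfe2, the NRF2 relative of the blood lineages, was at 264 ± 20.2 and 302 ± 25.5 CPM (SD, n = 3 each, edgeR adjusted p = 0.820).

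Among 5 genes of superoxide dismutases and catalase the median log2 fold change was 0.26. Here 1 was higher and 0 were lower at an unadjusted p under 0.05 in edgeR, against 3.51% and 3.22% of all genes. This was Sod3, the extracellular dismutase, at 77.0, 72.1 and 119 CPM in mutants and at 59.9, 65.3 and 62.8 CPM in wt. Mutant replicate 3 stood far above the other mutant libraries for Sod3. The mitochondrial dismutase gene Sod2 was at 83.3 ± 8.40 and 69.7 ± 8.02 CPM and the catalase gene Cat at 24.5 ± 2.53 and 19.4 ± 3.30 CPM (SD, n = 3 each). Their edgeR adjusted p were 0.594, 0.799 and 0.820.

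ATF4, the transcription factor of the amino acid response, also activates Slc7a11, and its 12 listed genes were split. At an unadjusted p under 0.05 in edgeR 2 were higher and 2 lower, against 3.51% and 3.22% of all genes. Their median log2 fold change over the list was -0.13. Atf4 was at 123, 116 and 123 CPM in mutants and at 90.4, 98.6 and 97.1 CPM in wt, with no overlap. Chac1, a target whose enzyme degrades glutathione, went the other way at 87.8, 68.7 and 66.0 CPM in mutants and at 118, 89.6 and 99.6 CPM in wt. Ddit4, an inhibitor of mTORC1, was at 11.1, 15.5 and 12.3 CPM in mutants and at 22.1, 18.0 and 16.0 CPM in wt. The other higher gene, Ddit3, which encodes the stress factor CHOP and is named here after its values were seen, was at 61.6, 62.0 and 61.1 CPM in mutants and at 39.8, 52.6 and 52.7 CPM in wt. ATF4 targets were thus found on both sides, with edgeR adjusted p of 0.498 for Atf4, 0.533 for Chac1, 0.667 for Ddit4 and 0.675 for Ddit3.

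In all, 94 of the 99 other listed pathway genes were tested, and the 5 left out (Gsta4, Abcb6, Hrg, Ces1g and Abcc2) did not reach the count minimum. Of the 94, edgeR called 0 after adjustment, and at an unadjusted p under 0.05 it had 10 higher and 4 lower, against 3.51% and 3.22% of all genes. These counts became 4 higher without mutant replicate 3, 7 lower without mutant replicate 2, and 5 higher and 1 lower without wt replicate 1. Groups did not overlap for 19 of the 94, which is 20.2% against 13.0% of all tested genes, and the median log2 fold change was 0.04 against 0.01.

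**Figure D4:**
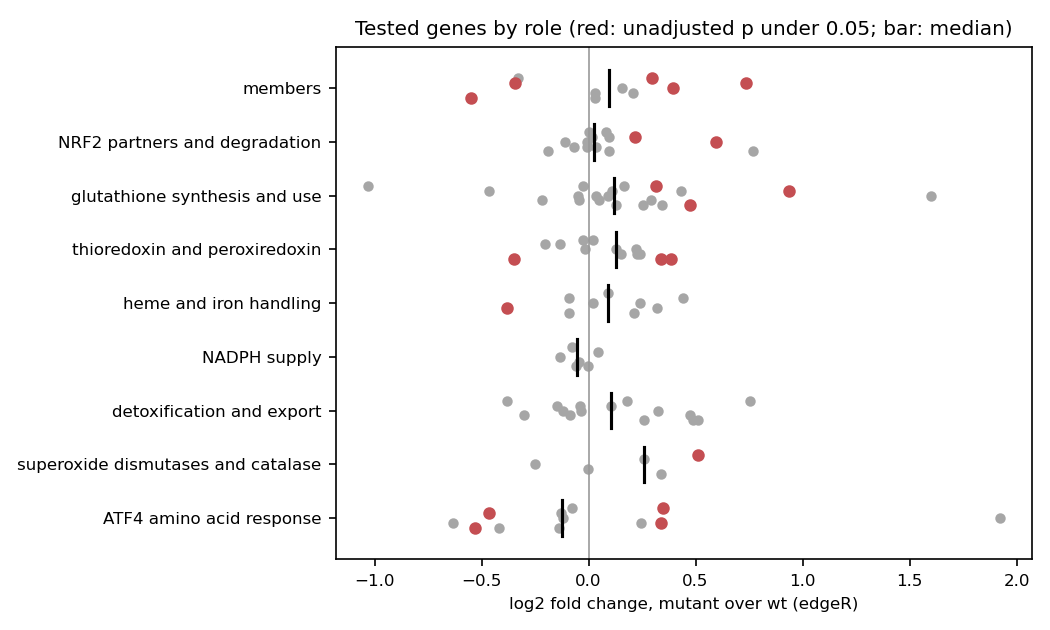
Log2 fold change, mutant over wt, of every tested gene by role, with genes at an unadjusted edgeR p under 0.05 in red, the others in grey and the median of each list as a black bar. The medians lie between -0.13 and 0.26, and detoxification and NADPH supply have 0 red points.

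Markers of other lung cells also differed between the libraries. Summed markers of alveolar macrophages (14 of 14 detected) were at 1023 to 1662 CPM in mutants and 760 to 953 CPM in wt, and those of fibroblasts (8 of 8) at 405 to 635 and 295 to 349 CPM, each without overlap and each with a two-sided exact permutation p of 0.1, the smallest that 3 against 3 libraries allow. Epithelial markers (12 of 12 detected) were at 549 to 1011 CPM in mutants and 266 to 555 CPM in wt (exact permutation p = 0.2), and endothelial markers at 1127 to 1459 and 1264 to 1552 CPM (exact permutation p = 0.5). Erythroid markers, mostly globin genes of few counts, also did not overlap, at 3.07 to 3.96 CPM in mutants and 0.788 to 2.78 CPM in wt, a ratio of 2.27 (exact permutation p = 0.1). Their part in the values of the heme and iron genes was not tested. Monocyte and interstitial macrophage markers overlapped, at 1169 to 1242 CPM in mutants and 1212 to 1257 CPM in wt, a ratio of 0.973 (exact permutation p = 0.2). Several of the alveolar macrophage markers are also made by neutrophils, Chil3 and Itgax among them. Of the 7 eosinophil, basophil and mast cell markers Epx and Fcer1a were at 0 in all libraries. The list still summed to 5.11 to 9.34 CPM in mutants and 4.56 to 9.94 CPM in wt. Mutant replicate 3 had the highest alveolar macrophage, epithelial and fibroblast sums, and also the highest values of Gpx3 and Sod3. Without it the alveolar macrophage, fibroblast and epithelial sums were still 1.27, 1.25 and 1.55 times those of wt. Of the members that separated, the log2 fold changes without that library were 0.42 for Slc7a11, 0.34 for Txnrd1, 0.86 for Srxn1, -0.37 for Hmox1 and -0.58 for Bach1. The part of macrophage, epithelial and fibroblast RNA in the values of the members and of the other pathway genes was not tested. Of the 12 neutrophil markers 3 had positive and 9 negative log2 fold changes, with a median of -0.12, and the groups overlapped for 10. The other 2, S100a8 and Cxcr2, named after their values were seen, were lower in all mutant libraries than in wt, at 966 to 1507 against 1687 to 1751 CPM and at 1946 to 2136 against 2475 to 2623 CPM (adjusted p of 0.405 and 0.294 by edgeR, and of 0.0341 and 0.0161 by DESeq2). In bulk libraries fewer cells of a type and less RNA per cell cannot be told apart.

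**Figure D5:**
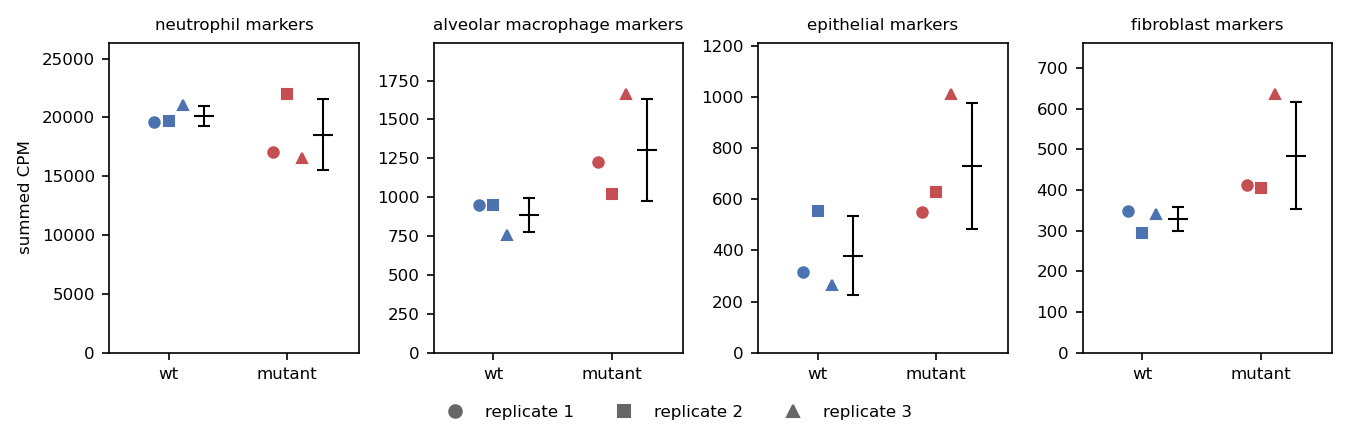
Summed CPM of the markers of 4 cell types in each library, wt in blue and mutant in red, with the mean and SD of each group in black. The mutant sums of alveolar macrophage and fibroblast markers lie above all wt sums, with mutant replicate 3 highest, while neutrophil and epithelial markers overlap.

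The genes whose profile over the 6 libraries was most like that of a member were found among 6609 protein-coding genes averaging 10 CPM or more, by the root mean square distance of log2(CPM + 1) scaled to a mean of 0 and an SD of 1, where 0 is an identical profile. For Hmox1 these were Crkl (0.11), which encodes a signalling adaptor, Trmt1l (0.13) and Jade1 (0.14). For Slc7a11 they were Camk2d (0.11), a calcium-dependent kinase gene, Slc25a36 (0.11), a mitochondrial nucleotide carrier gene, and Ifrd1 (0.12). For Nfe2l2, which varied little, they were Col11a2 (0.17), Tbx3 (0.18) and Sf3a3 (0.23). None of these 9 genes is on the pathway lists.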

How the data were processed

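The authors deposited one table of raw, whole-number read counts per gene with summed exon lengths, made with STAR and featureCounts on the build GRCm38, per the submitters' processing notes. The sources used here do not give versions, annotation release or strand setting. Per the labels' protocols, cDNA came from sorted cells by SMART-Seq v2, which does not mark strand and adds PCR copies. Symbols came from GENCODE M21 (55094 of 55487 identifiers matched exactly and 300 without version).

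Genes were kept by filterByExpr (minimum count 10, 99.9% of counts), scaled by TMM and tested in edgeR 4.0.16 (R 4.3.3) by quasi-likelihood, unpaired, with Benjamini-Hochberg adjustment over all 15774 genes. The script was tested on simulated data. Standard errors were derived from the log2 fold change and its F statistic. Alternatives were other scalings and filters, DESeq2 1.42.0, limma-voom (limma 3.58.1) and leaving out each library. Replicates are numbered in accession order. The genes named are the 10 members, Tgfbr2, the 3 genes with the smallest p of each pathway list, and the 3 nearest profiles of Nfe2l2, Hmox1 and Slc7a11. Single marker genes and genes of the closing section were chosen after their values were seen. The members and lists were chosen with earlier results of these data known.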

Additional observations from a re-analysis of the deposited data

How the results depend on the processing

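Across 12 alternatives 0 members were called in either direction, although Nqo1 and Gclc were outside the test limited to genes averaging 10 CPM or more. Bach1, Hmox1, Slc7a11, Txnrd1, Srxn1 and Keap1 kept their sign throughout. The signs that turned were those of Nfe2l2 (-0.0089 to 0.062 with each library left out), Gclc (-0.020 to 0.44), Gclm (-0.14 to 0.32) and Nqo1 (-0.15 to 0.27, and -0.035 with limma-voom). The counts of members higher at an unadjusted p under 0.05 ran from 0 to 3 with each library left out, and those of members lower stayed at 2. For the other pathway genes they ran from 4 to 13 higher and from 1 to 7 lower. Over all genes, 1 higher and 0 lower became 81 and 74 by DESeq2, 41 and 29 with no filter on low counts and 14 and 4 among those averaging 10 CPM or more, and ran from 0 to 1 in either direction with each library left out. The cause of these shifts was not tested. Marker sum ratios of mutant over wt turned below 1 for B and plasma cells (0.988 to 1.39) and for eosinophils, basophils and mast cells (0.899 to 1.33) with single libraries left out. No paired analysis was possible because the labels number no replicates and do not say which mutant and wt littermates belong together, so any pairing is unknown. The intervals of Nqo1, Gclc, Gclm and Keap1 were too wide to show changes of the size seen for Txnrd1.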

Other observations

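Several antioxidant genes that did not separate the groups had their highest value in mutant replicate 2. That library was also highest for Slc7a11, Txnrd1, Srxn1 and Gss, and so for all members on the higher side. The share of all genes highest there was not computed. Txn1, the gene of cytosolic thioredoxin, was at 130 CPM there, against 54.4 and 53.5 CPM in mutant replicates 1 and 3 and 79.4, 95.2 and 86.3 CPM in wt replicates 1 to 3. Gpx1, the main cytosolic glutathione peroxidase gene, was at 504 CPM there and at 287 to 396 CPM in the other 5 libraries. Gpx4, whose enzyme reduces lipid peroxides, was at 169 CPM against 87.6 to 131 CPM elsewhere, and the peroxiredoxin gene Prdx5 at 260 CPM, against 131 to 222 CPM elsewhere. The neutrophil marker sum was also highest in this library, at 21978 CPM. These genes were chosen after their values were seen.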
